A study of Mus musculus with 20 samples.

Results

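Neutrophils recruited by lipopolysaccharide (LPS) into an air pouch under the back skin of wild-type (WT) mice were compared with whole lung of WT mice, to describe what the transcriptome of the recruited polymorphonuclear leukocytes (PMN) holds relative to a whole organ. The comparison used the 3 WT PMN libraries and the 3 WT lung libraries, 6 of the 20 libraries in the series, chosen by their labels alone. The study sequenced RNA of pouch PMN and of lung from WT mice and from mice with an altered or deleted Ager, the gene of the receptor RAGE, and the mutant libraries entered here only 1 alternative fit. WT PMN came from C57BL/6 mice of wild-type genotype whose pouch was raised with 3 ml of air, refilled with 2 ml after 3 days, and given 1 μg of Escherichia coli LPS in 0.5% carboxymethyl cellulose on day 7. The pouch was washed out 4 h later, and the labels describe the cells as over 95% PMN. WT lung came from C57BL/6 mice of the same genotype, was perfused and flash frozen, and carries no treatment in its labels. Neither group holds a transgene or mutant allele, and the labels give no age. The study describes its replicates as separate mice, and whether a PMN and a lung library with the same number came from the same mouse is not given. Tissue, LPS and pouch differ together between the groups and cannot be told apart. In bulk RNA, fewer cells of a type and less RNA per cell cannot be told apart either.

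Neutrophils are short-lived granulocytes that leave the bone marrow with most granule proteins already made, follow chemokines and bacterial products into tissue, and there engulf microbes, make reactive oxygen, empty their granules and secrete cytokines. LPS, from the outer membrane of Gram-negative bacteria, is handed by CD14 to TLR4 and MD-2, which signal through MYD88 and TRIF to NF-kB and to interferon regulatory factors. Whole lung holds alveolar and airway epithelium, endothelium, fibroblasts, muscle and resident leukocytes, and RAGE itself is best known there as a protein of alveolar type 1 cells.

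Total counts were 18226486 to 19584101 (median 18278181) in the WT PMN libraries and 19586313 to 24683586 (median 20611066) in the WT lung libraries. The PMN libraries drew on fewer genes, with 9989 to 10512 genes at 10 counts or more in WT PMN, against 16308 to 17126 in WT lung. The 100 genes with the most counts took 49.7% ± 1.68 of all counts in WT PMN and 29.1% ± 0.407 in WT lung (SD, n = 3 each). Values below are normalised CPM, counts per 1e6 of a library size scaled by TMM (trimmed mean of M-values), with means ± SD over 3 libraries and log2 fold changes of WT PMN over WT lung ± SE. TMM multiplied the PMN library sizes by 0.371 to 0.457 and the lung library sizes by 2.39 to 2.48. Scaling by library totals instead moved the log2 fold change of the median gene by 2.54 downward, with a median over all genes tested of −3.69, against −1.14 under TMM, −0.89 under RLE scaling and −1.27 under upper-quartile scaling. A direction that rests on a positive change smaller than this shift is therefore given with its value under library totals.

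Of 54532 genes in the table, 16227 passed the filter on low counts and entered the quasi-likelihood test of edgeR. A gene was called where its Benjamini-Hochberg adjusted p was under 0.05 and its log2 fold change at least 1 in size. The calls were 4238 genes higher (26.1%) and 8229 genes lower (50.7%) in WT PMN than in WT lung. Under library totals they were 1903 higher (11.7%) and 12630 lower (77.8%), and all of these 1903 were also higher under TMM. Every PMN library lay above every lung library for 5004 genes (30.8%) and below for 9286 genes (57.2%). More than 3 in 4 genes were thus called in one direction or the other (76.8%), and the counts in gene lists below are read against these shares. Lung replicate 2 stood apart in some features, such as the rRNA gene CT010467.1, named after its values were seen, which took 1.54% of its counts, against 0.0411% and 0.0811% in lung replicates 1 and 3. Leaving out any 1 library gave 4319 to 4369 genes higher and 8176 to 8482 lower.

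**Figure D1:**
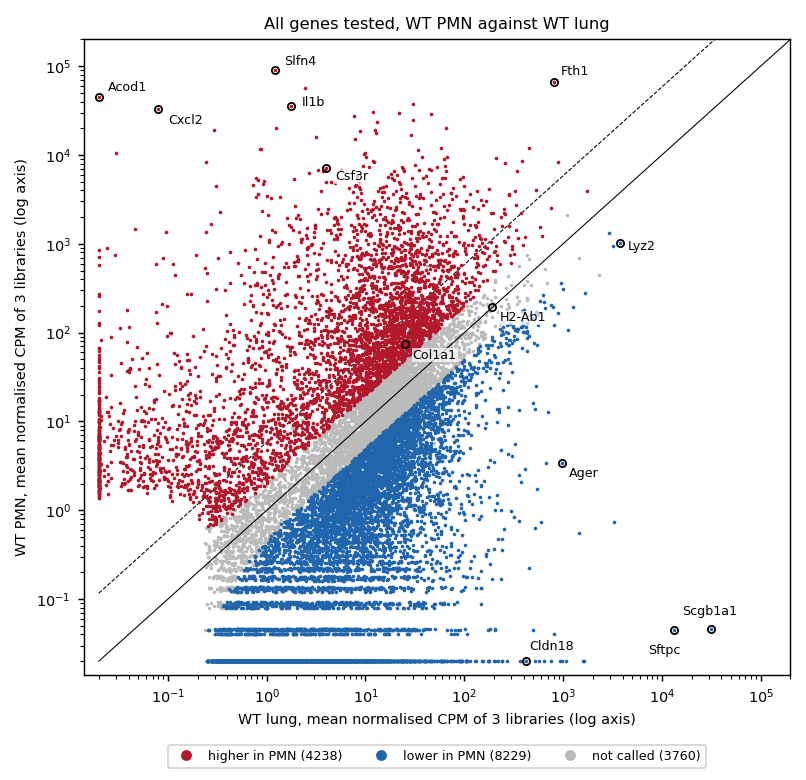
Mean normalised CPM of each of the 16227 genes tested in WT PMN (vertical, log axis) against WT lung (horizontal, log axis), with red for the 4238 genes higher in WT PMN, blue for the 8229 lower and grey for those not called; means under 0.02 are drawn at 0.02. The solid line marks equal values under TMM and the dashed line equal values under library totals, and Slfn4, Acod1, Il1b and Cxcl2 sit far above both while Scgb1a1, Sftpc, Cldn18 and Ager sit far below.

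The most abundant transcripts of the pouch PMN were those of iron storage, calprotectin, chemokines and genes known to respond to LPS, although induction was not tested here. Levels of different genes were compared per length, as TPM (counts over the deposited gene length, scaled to the same sum in each library). Fth1, the heavy chain of ferritin, ranked first at 88164, 77696 and 76381 TPM in WT PMN, against 4302, 3363 and 4248 in WT lung, and its log2 fold change was 6.35 ± 0.24 (adjusted p = 9.80e-15). Fth1 has close copies elsewhere in the genome, and how reads that match several genes were counted is not given, so its level is uncertain. S100a9 and S100a8 encode calprotectin, the calcium-binding dimer that fills neutrophil cytosol. S100a9 stood at 65802, 56053 and 64694 TPM in WT PMN, against 101, 70.3 and 125 in WT lung, and S100a8 at 24676, 22307 and 21548 in WT PMN, against 51.3, 30.6 and 66.4 in WT lung. Ccl4, a chemokine for monocytes and T cells, was at rank 3, with 32092, 31751 and 27684 TPM in WT PMN, against 0.688, 1.63 and 3.45 in WT lung. Slfn4, a schlafen gene induced by interferon in myeloid cells, took 3.13%, 4.45% and 3.60% of all counts in the PMN libraries, the most of any gene there, and stood at 19476, 29760.5 and 24788 TPM in WT PMN, against 1.07, 1.05 and 1.79 in WT lung. In the lung libraries the gene with most counts was Scgb1a1, the secretoglobin of club cells, at 7.84%, 7.72% and 7.41%. Every PMN value of these genes lay above every lung value except those of Scgb1a1. The genes were named for their high level in one tissue, so this separation is in part a result of the choice.

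Cd14, the LPS co-receptor, followed in PMN at 22647, 16566 and 20921 TPM in WT PMN, against 55.0, 50.4 and 70.5 in WT lung. Acod1, which makes itaconate from a citric acid cycle intermediate, reached 17471, 19214 and 18634 TPM in WT PMN and gave 2 counts over all 3 lung libraries, a ratio in normalised CPM of 3529540-fold (95% counting interval 977078 to 29144600). Marcksl1, a substrate of protein kinase C, reached 19660.4, 17747 and 17138 TPM in WT PMN, against 21.4, 19.6 and 19.7 in WT lung. Srgn, the core protein of the granule proteoglycan serglycin, reached 15709, 13232 and 12313 TPM in WT PMN, against 83.5, 78.3 and 104 in WT lung. Of the 25 genes with the highest mean TPM in WT PMN, all but Gm23935 had every PMN value above every lung value. These genes were picked by their PMN level, so this separation is in part a result of the choice. Over all genes tested, every PMN library lay above every lung library in normalised CPM for 30.8%. Gm23935, named after its values were seen, is annotated as a microRNA gene of 57 bases, and it stood at 15652, 13318 and 9050 TPM in WT PMN, against 20955, 243135 and 20161 in WT lung, with lung replicate 2 far above the other libraries.

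**Figure D2:**
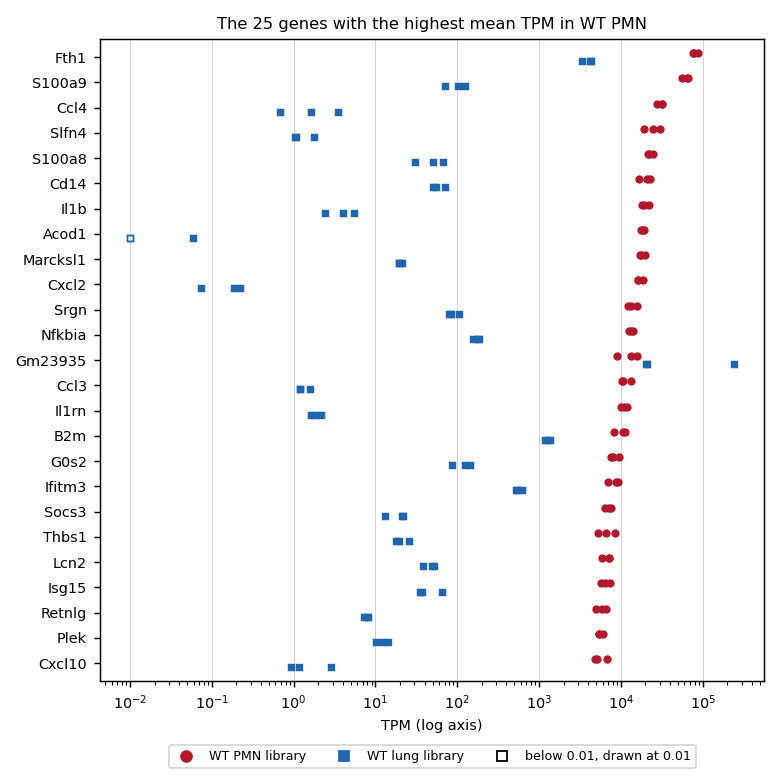
TPM (log axis) of the 25 genes with the highest mean level per length in WT PMN, with red circles for the 3 WT PMN libraries and blue squares for the 3 WT lung libraries; values below 0.01 are drawn open at 0.01. All PMN circles lie right of all lung squares for every gene shown except Gm23935, and the lung squares of Acod1, Cxcl2, Ccl4, Ccl3 and Slfn4 lie below 4 TPM. The genes were picked by their PMN level, which favours this separation.

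The PMN libraries were set beside a list of neutrophil genes that also holds Slfn4, Acod1 and Il1f9, which interferon or LPS induces in other myeloid cells too. All 30 neutrophil identity genes tested were higher in WT PMN, under TMM and under library totals alike, where 26.1% of all genes were higher under TMM. This list, like those below, was chosen with earlier results of these data known, so its count is a description and not a test. Their median log2 fold change was 11.32 with genes at 0 in lung set to their bound, and 11.58 without that step, against −1.14 over all genes. Csf3r, the receptor of granulocyte colony-stimulating factor, had 7274, 7177 and 7105 normalised CPM in WT PMN, against 4.44, 4.11 and 3.47 in WT lung (log2 fold change 10.81 ± 0.25, adjusted p = 4.11e-17). Cxcr2, the receptor that brings neutrophils to CXC chemokines, had 2609, 2188 and 2241 in WT PMN, against 0.935, 0.886 and 0.883 in WT lung (log2 fold change 11.34 ± 0.25, adjusted p = 3.96e-17). Il1r2, a decoy receptor for interleukin-1, had 5512, 3899 and 3882 in WT PMN, against 0.204, 0.295 and 0.432 in WT lung (log2 fold change 13.80 ± 0.34, adjusted p = 5.74e-17). For each of these receptors every PMN library lay far above every lung library. Ly6g, the antigen used to sort mouse neutrophils, had 149, 103 and 89.5 normalised CPM in WT PMN, against 0, 0 and 0.0981 in WT lung (log2 fold change 11.63 ± 0.48, adjusted p = 1.47e-10). Mrgpra2b, a receptor that triggers degranulation in mouse neutrophils, had 1076, 778 and 688 normalised CPM in WT PMN and 1 count over the lung libraries, a ratio of 131922-fold (95% counting interval 23677 to 5210630). Its neighbour Mrgpra2a had 336, 235 and 199.8 in WT PMN and 0 counts in WT lung, at least 4450.2-fold higher by a floor of 3 counts per lung library. The Mrgpra2 pair and the stefin genes Stfa2, Stfa2l1, Stfa3 and BC100530 have near-identical relatives, so the split of reads among them is uncertain.

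In the other direction, the summed level of the neutrophil identity genes was 225106 to 283677 normalised CPM in WT PMN and 115 to 129.7 in WT lung. Slfn4 and Acod1 alone, at averages of 90469.9 and 45174 normalised CPM in WT PMN, carried much of the PMN sum. The lung level of a single gene was at most 2.19% of its PMN level and 0.0288% at the median, over the 29 genes with a PMN mean of at least 10 normalised CPM. Under library totals the median was 0.200%. The highest of these shares was that of Msrb1, a selenoprotein that repairs oxidised methionine, with 1678, 1173 and 1102 normalised CPM in WT PMN, against 32.2, 28.1 and 26.3 in WT lung (log2 fold change 5.51 ± 0.22, adjusted p = 1.58e-14). Levels of these genes in perfused WT lung were thus low relative to WT PMN, and the markers Mrgpra2a, Stfa2, BC100530 and Stfa3 had 0 counts in all 3 lung libraries.

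Granule genes were taken by the stage of maturation at which neutrophils make them. Primary (azurophil) granule proteins are made in promyelocytes, and of the 10 genes of that list only 3 passed the filter, with 0 higher and 1 lower in WT PMN. Mpo, Elane, Prtn3, Ctsg and Bpi, which encode myeloperoxidase, 3 serine proteases and a protein that kills bacteria by binding LPS, were at or near 0 in both tissues. Mpo had 0, 2 and 0 counts in WT PMN, against 0, 1 and 0 in WT lung, and Elane had 1, 0 and 0 counts in WT PMN, against 0, 0 and 0 in WT lung. Prtn3 had 5, 1 and 2 counts in WT PMN, against 10, 9 and 21 in WT lung. Lyz2, the lysozyme that macrophages and alveolar type 2 cells also make, was lower in WT PMN, at 964, 1075 and 1036 normalised CPM in WT PMN, against 3927, 3596 and 3814 in WT lung (log2 fold change −1.88 ± 0.16, adjusted p = 2.82e-09).

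Secondary and tertiary granule proteins are made later, in myelocytes to band cells, and 15 of 18 such genes were higher and 1 lower in WT PMN (13 higher and 2 lower under library totals). Lcn2, the siderophore-binding lipocalin, had 20529, 17152 and 12415 normalised CPM in WT PMN, against 30.5, 35.4 and 21.3 in WT lung (log2 fold change 9.17 ± 0.30, adjusted p = 1.60e-15). Lcn2 is also listed among alveolar type 2 genes. Mmp8, neutrophil collagenase, had 766, 796 and 851 in WT PMN, against 0.408, 0.612 and 0.255 in WT lung (log2 fold change 10.88 ± 0.28, adjusted p = 9.08e-17). The gelatinase gene Mmp9 had 1169, 926 and 1311 in WT PMN, against 1.97, 2.34 and 2.57 in WT lung (log2 fold change 8.95 ± 0.24, adjusted p = 1.40e-16). Per length, Lcn2 was rank 21 of all genes in WT PMN, against rank 802 for Ngp, 2017 for Ltf and 6381 for Camp, which are made at the myelocyte stage. Ltf, lactoferrin, had 93.8, 86.6 and 56.8 normalised CPM in WT PMN, against 11.2, 9.01 and 42.4 in WT lung and was not called (log2 fold change 1.92 ± 0.76, adjusted p = 0.0688), with a log2 fold change of −0.67 under library totals. Without lung replicate 3, the highest lung value, Ltf was called higher at 2.94, adjusted p = 4.32e-09. It was also called higher under RLE scaling (2.19, adjusted p = 0.0492), by DESeq2 (2.07, adjusted p = 0.00601), in the fit of all 20 libraries (1.88, adjusted p = 0.0428), in the limma fits on FPKM and in the fit that was not robust. Camp, the cathelicidin, had 1.79, 1.60 and 1.56 in WT PMN, against 0.0170, 0.190 and 0.118 in WT lung (log2 fold change 3.94 ± 0.58, adjusted p = 3.86e-06). Ngp, a cathelicidin-like granule protein, had 100.4, 119.9 and 127 in WT PMN, against 0, 0.0633 and 0.0589 in WT lung (log2 fold change 11.41 ± 0.33, adjusted p = 2.75e-16). Chil3, a chitinase-like protein of macrophages and neutrophils, was lower in WT PMN, at 53.5, 51.4 and 82.9 normalised CPM in WT PMN, against 171, 119 and 147 in WT lung (log2 fold change −1.22 ± 0.19, adjusted p = 9.80e-06), and under RLE scaling it was −0.96, adjusted p = 8.55e-05, short of the fold threshold and not called. Hp, haptoglobin, was abundant in both tissues and changed direction with the scaling, at 3021, 2298 and 2219 normalised CPM in WT PMN, against 710.4, 853 and 676 in WT lung and a log2 fold change of 1.75 ± 0.18 under TMM (adjusted p = 2.97e-08) but −0.82 under library totals.

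The phagocyte oxidase makes superoxide from oxygen and NADPH. Of its 7 genes, 6 were higher in WT PMN and 1 lower (5 and 1 under library totals). The membrane subunit Cybb had 1679, 2296 and 1568 normalised CPM in WT PMN, against 15.03, 13.4 and 9.55 in WT lung (log2 fold change 7.19 ± 0.25, adjusted p = 2.99e-15). The cytosolic organiser Ncf1 had 1931, 1502 and 1481 in WT PMN, against 11.3, 9.32 and 9.36 in WT lung (log2 fold change 7.35 ± 0.22, adjusted p = 4.07e-16). Rac2, the GTPase that completes the complex, had 4269, 3289 and 2613 in WT PMN, against 7.26, 8.78 and 8.47 in WT lung (log2 fold change 8.70 ± 0.26, adjusted p = 3.68e-16). Hvcn1, the proton channel that balances the charge moved by the oxidase, was the exception, at 1.38, 0.932 and 0.840 normalised CPM in WT PMN, against 3.98, 3.71 and 2.53 in WT lung (log2 fold change −1.71 ± 0.36, adjusted p = 2.52e-04).

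**Figure D3:**
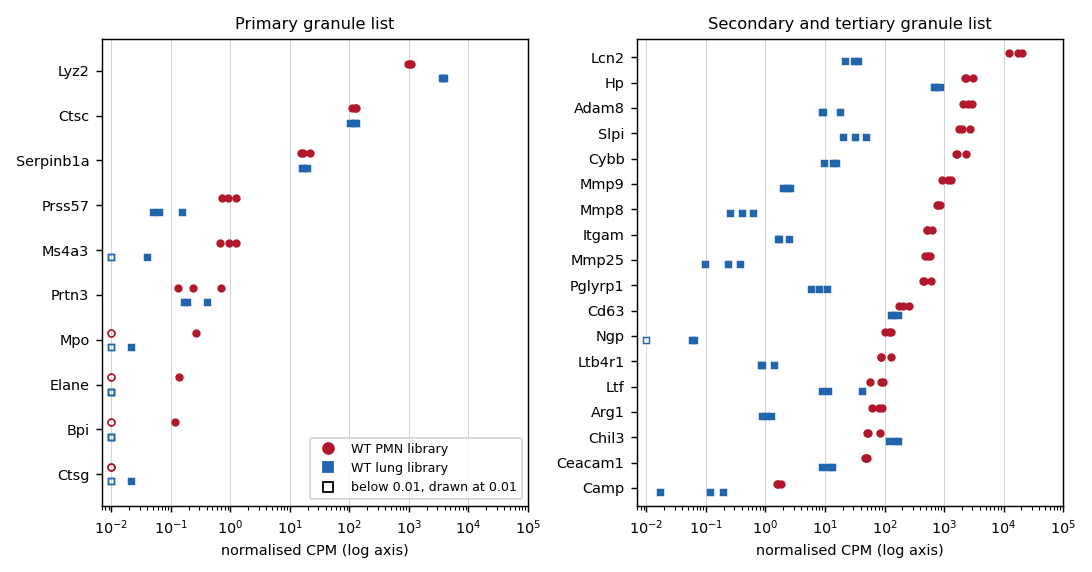
Normalised CPM (log axis) of the genes listed for primary granules (left) and for secondary and tertiary granules (right), with red circles for the 3 WT PMN libraries and blue squares for the 3 WT lung libraries; values below 0.01 are drawn open at 0.01. In the left panel Mpo, Elane, Bpi and Ctsg lie under 1 in both tissues and Lyz2 lies higher in WT lung, while in the right panel Lcn2, Mmp8 and Mmp9 lie far higher in WT PMN.

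Receptors let neutrophils follow chemoattractants and respond to growth factors. All 23 tested were higher in WT PMN under TMM, and 20 were still higher and 0 lower under library totals. Fpr1, the receptor of bacterial formyl peptides, had 1850, 1422 and 1611 normalised CPM in WT PMN, against 2.77, 3.65 and 2.81 in WT lung (log2 fold change 9.05 ± 0.24, adjusted p = 1.16e-16). C5ar1, the receptor of complement C5a, had 3093, 2061 and 2156 in WT PMN, against 3.88, 2.85 and 3.22 in WT lung (log2 fold change 9.52 ± 0.27, adjusted p = 1.95e-16). Ptafr, for platelet-activating factor, had 3410.2, 3147 and 3419 in WT PMN, against 1.39, 1.56 and 1.18 in WT lung (log2 fold change 11.23 ± 0.25, adjusted p = 4.10e-17). Ccr1, a receptor of CC chemokines that include CCL3, had 4761, 3982 and 2924 in WT PMN, against 3.15, 3.42 and 4.16 in WT lung (log2 fold change 10.09 ± 0.28, adjusted p = 1.69e-16). These groups did not overlap in any of the genes named. Hcar2, a receptor of niacin and ketone bodies, was at rank 36 of all genes per length in WT PMN, with 7249.9, 7022 and 5763 normalised CPM in WT PMN, against 3.21, 3.16 and 4.79 in WT lung (log2 fold change 10.81 ± 0.28, adjusted p = 9.63e-17). Tnfrsf1b, a receptor of tumour necrosis factor, had 9281, 7667 and 8149.8 in WT PMN, against 13.4, 12.6 and 10.7 in WT lung (log2 fold change 9.42 ± 0.24, adjusted p = 8.91e-17). Cxcr1, the second CXC receptor of neutrophils, had 20.9, 15.2 and 17.4 in WT PMN, against 0.0170, 0.0844 and 0.392 in WT lung (log2 fold change 6.76 ± 0.53, adjusted p = 6.14e-07), and per length Cxcr2 was at rank 169 and Cxcr1 at rank 2890 in WT PMN. Cxcr4, the receptor that retains neutrophils in bone marrow, had 203, 103 and 119 in WT PMN, against 31.0, 30.2 and 26.5 in WT lung and a log2 fold change of 2.28 under TMM (adjusted p = 3.50e-08) but −0.31 under library totals.

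The LPS receptor was present in all its parts. Cd14 had 38933, 23901 and 26345 normalised CPM in WT PMN, against 19.4, 21.7 and 23.9 in WT lung (log2 fold change 10.42 ± 0.30, adjusted p = 2.06e-16). Tlr4 had 821, 644 and 699 in WT PMN, against 8.35, 8.29 and 8.22 in WT lung (log2 fold change 6.44 ± 0.20, adjusted p = 4.69e-16). Ly96, which encodes MD-2, had 29.3, 23.3 and 22.3 in WT PMN, against 1.33, 1.41 and 1.39 in WT lung (log2 fold change 4.18 ± 0.20, adjusted p = 3.36e-13). Per length, Cd14 was at rank 6, Tlr4 at 672 and Ly96 at 1924 in WT PMN. Of the 16 LPS receptor and adaptor genes, 12 were higher and 1 lower (11 and 4 under library totals). Myd88, the adaptor of the NF-kB branch, had 1133, 1002 and 992 normalised CPM in WT PMN, against 14.1, 13.5 and 14.5 in WT lung (log2 fold change 6.21 ± 0.19, adjusted p = 5.35e-16). Ticam1, which encodes TRIF, the adaptor of the interferon branch, had 6.75, 5.86 and 8.28 in WT PMN, against 3.86, 4.89 and 4.51 in WT lung (log2 fold change 0.66 ± 0.23, adjusted p = 0.0108). Its bridging adaptor Ticam2 had 0.551, 1.07 and 0.480 in WT PMN, against 0.527, 0.928 and 0.216 in WT lung (log2 fold change 0.32 ± 0.60, adjusted p = 0.616). Neither TRIF-branch gene was called under TMM, and under library totals their log2 fold changes were −1.89 and −2.21, both called lower. Irak3, an inhibitor of the pathway, had 763, 622 and 650.5 normalised CPM in WT PMN, against 2.01, 2.07 and 2.12 in WT lung (log2 fold change 8.36 ± 0.21, adjusted p = 7.41e-17). Lbp, the plasma protein that carries LPS to CD14, was lower at 12.7, 13.6 and 11.5 in WT PMN, against 40.2, 27.5 and 23.7 in WT lung (log2 fold change −1.28 ± 0.20, adjusted p = 9.37e-06).

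All 19 Fc and C-type lectin receptors tested were higher in WT PMN under both scalings, with a median log2 fold change of 7.89 against −1.14 over all genes. Clec4d and Clec4e recognise mycobacterial glycolipids and dead cells. Clec4d averaged 5484 ± 1067 normalised CPM in WT PMN and 0.784 ± 0.0766 in WT lung, and Clec4e averaged 5095 ± 812 in WT PMN and 0.941 ± 0.201 in WT lung. Trem1, an amplifier of Toll-like receptor signals, averaged 3493 ± 677 in WT PMN and 1.01 ± 0.196 in WT lung, and Fcgr4, an activating receptor for IgG, averaged 1342 ± 446 in WT PMN and 2.10 ± 0.471 in WT lung. Among 16 adhesion genes, 12 were higher and 2 lower (10 and 4 under library totals). Of the chains of the Mac-1 integrin, Itgam averaged 559 ± 63.3 normalised CPM in WT PMN and 1.94 ± 0.492 in WT lung, and Itgb2 averaged 1707 ± 124 in WT PMN and 18.3 ± 2.39 in WT lung. Cd44, the hyaluronan receptor, averaged 5841 ± 801 in WT PMN and 41.3 ± 5.83 in WT lung (log2 fold change 7.14 ± 0.23, adjusted p = 8.52e-16). The endothelial ligands Vcam1 and Icam2 were lower in WT PMN, with log2 fold changes of −1.31 and −4.63 (adjusted p = 1.33e-06 and 3.46e-13).

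Interleukin-1 genes were among the most abundant in WT PMN. Of 15 genes of the family and its receptors, 12 were higher in WT PMN and 1 lower (12 and 3 under library totals). Il1b had 39659, 38654 and 27559 normalised CPM in WT PMN, against 1.72, 1.27 and 2.26 in WT lung (log2 fold change 14.30 ± 0.35, adjusted p = 5.90e-17). Il1rn, the antagonist that occupies the interleukin-1 receptor, had 71575, 55144 and 44086 in WT PMN, against 2.69, 2.49 and 2.22 in WT lung (log2 fold change 14.49 ± 0.34, adjusted p = 4.11e-17). Per length the agonist was ahead, at 19017, 22085 and 18040.5 TPM for Il1b and 11825, 10855 and 9943 TPM for Il1rn in WT PMN. Il1a had 3523, 3978 and 2659 normalised CPM in WT PMN, against 0.612, 0.907 and 0.844 in WT lung (log2 fold change 12.07 ± 0.30, adjusted p = 5.90e-17). Il1f9, which encodes an interleukin-36 agonist, had 5082, 4670.4 and 4254 in WT PMN, against 0.850, 0.865 and 1.02 in WT lung (log2 fold change 12.32 ± 0.27, adjusted p = 3.88e-17). The groups of all these ligands stood far apart. The signalling receptor Il1r1 had 8.95, 13.3 and 12.002 normalised CPM in WT PMN, against 12.5, 13.6 and 14.0 in WT lung and was not called (log2 fold change −0.23 ± 0.19, adjusted p = 0.262), although its log2 fold change under library totals was −2.77 and called lower. Il1rap, the accessory chain, was higher at 3289, 2849 and 2555 in WT PMN, against 8.57, 7.76 and 6.47 in WT lung (log2 fold change 8.57 ± 0.24, adjusted p = 1.60e-16). Il33, an alarmin stored in lung epithelial nuclei, was lower at 4.68, 12.3 and 2.76 in WT PMN, against 55.4, 49.5 and 38.6 in WT lung (log2 fold change −2.88 ± 0.50, adjusted p = 0.00185).

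Of 30 LPS-induced cytokine and effector genes, 27 were higher and 2 lower in WT PMN (26 and 3 under library totals), with a bounded median log2 fold change of 8.42. Tnf had 682, 844 and 569.7 normalised CPM in WT PMN, against 0.187, 0.380 and 0.392 in WT lung (log2 fold change 11.10 ± 0.30, adjusted p = 1.26e-16). Osm, a cytokine of the interleukin-6 family, had 1519.8, 2271 and 1190 in WT PMN, against 0.272, 0.232 and 0.314 in WT lung (log2 fold change 12.55 ± 0.34, adjusted p = 1.59e-16). Csf3, which encodes the granulocyte colony-stimulating factor itself, had 783, 734 and 737 in WT PMN, against 0.0680, 0 and 0.0196 in WT lung (log2 fold change 14.36 ± 0.35, adjusted p = 5.43e-17). Il6 had 15.4, 21.6 and 18.8 in WT PMN, against 0.102, 0 and 0.0392 in WT lung (log2 fold change 8.41 ± 0.38, adjusted p = 1.20e-13). Per length in WT PMN, Osm was at rank 176, Csf3 at 225 and Tnf at 281 of all genes, and Il6 at 3535. Il10, the anti-inflammatory cytokine, had 55.7, 48.3 and 43.1 normalised CPM in WT PMN and 0 counts in WT lung, at least 849.5-fold higher. Il23a, a subunit of interleukin-23, had 191, 177 and 153 in WT PMN and 1 count over the lung libraries, a ratio of 27167-fold (95% counting interval 4876 to 1073040). Il12b, the partner subunit of interleukin-23, was near the detection limit at 16, 21 and 19 counts in WT PMN, against 16, 4 and 4 in WT lung (log2 fold change 3.98 ± 0.50, adjusted p = 5.35e-07).

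Effectors of other kinds were mostly higher in WT PMN. Thbs1, the matrix protein thrombospondin-1, had 34882, 36576 and 41250.3 normalised CPM in WT PMN, against 34.9, 30.1 and 25.6 in WT lung (log2 fold change 10.28 ± 0.27, adjusted p = 9.08e-17). Ptgs2, inducible cyclooxygenase, had 3494, 4190.1 and 3389.8 in WT PMN, against 8.69, 11.3 and 7.38 in WT lung (log2 fold change 8.66 ± 0.25, adjusted p = 2.79e-16). Nos2, inducible nitric oxide synthase, had 1068, 1558 and 1076 in WT PMN, against 0.867, 1.18 and 0.530 in WT lung (log2 fold change 10.49 ± 0.32, adjusted p = 8.12e-16). Prok2, a ligand of prokineticin receptors, had 124, 98.8 and 160.3 in WT PMN and 1 count over the lung libraries. F3, tissue factor, which starts clotting, had 673, 885 and 539 in WT PMN, against 24.98, 21.9 and 29.2 in WT lung (log2 fold change 4.79 ± 0.22, adjusted p = 1.16e-13). The genes lower in WT PMN were Vegfa, the endothelial growth factor, at 117, 102 and 107 in WT PMN, against 295, 322 and 355 in WT lung (log2 fold change −1.57 ± 0.15, adjusted p = 1.53e-08). Csf2, which encodes GM-CSF, at 0.689, 0.266 and 0 in WT PMN, against 0.782, 0.844 and 1.24 in WT lung (log2 fold change −1.63 ± 0.67, adjusted p = 0.0290). Csf2 lost its call without PMN replicate 2 (−1.54, adjusted p = 0.0905), PMN replicate 3 (−0.94, adjusted p = 0.177) or lung replicate 3 (−1.42, adjusted p = 0.0718).

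Chemokines went in both directions. Among 14 CXC chemokines tested, 8 were higher and 5 lower in WT PMN (6 and 8 under library totals). Cxcl2, a ligand of CXCR2, had 36281, 35268 and 26837 normalised CPM in WT PMN, against 0.0340, 0.105 and 0.0981 in WT lung (log2 fold change 18.63 ± 0.39, adjusted p = 3.88e-17). Cxcl3, another CXCR2 ligand, had 13703, 9290 and 8759 in WT PMN, against 0.0680, 0.0211 and 0 in WT lung (log2 fold change 18.17 ± 0.45, adjusted p = 6.77e-17). Cxcl1 had 343, 343 and 253 in WT PMN, against 0.289, 0.232 and 0.392 in WT lung (log2 fold change 9.98 ± 0.26, adjusted p = 9.08e-17). Cxcl5, a further CXCR2 ligand, had 0.964, 8.52 and 0.480 in WT PMN, against 0.0340, 0.0844 and 0.177 in WT lung, with PMN replicate 2 above the others. Per length in WT PMN, these CXCR2 ligands were at rank 10 for Cxcl2, 43 for Cxcl3, 575 for Cxcl1 and 6882 for Cxcl5. Cxcl10, a CXCR3 ligand induced by interferons, had 12672, 14038 and 8619.9 normalised CPM in WT PMN, against 1.46, 0.570 and 0.569 in WT lung (log2 fold change 13.70 ± 0.47, adjusted p = 7.36e-12). Cxcl9 had 102, 164 and 31.4 in WT PMN, against 0.0680, 0.148 and 0.0981 in WT lung (log2 fold change 9.86 ± 1.05, adjusted p = 6.61e-04). The CXC chemokines lower in WT PMN included Cxcl15, a product of lung epithelium in mice, at 2.07, 3.73 and 2.88 in WT PMN, against 450.5, 425 and 357 in WT lung (log2 fold change −7.15 ± 0.23, adjusted p = 1.15e-15). Cxcl12, the stromal ligand of CXCR4, with 3 counts over the PMN libraries and 46.8, 54.1 and 41.5 normalised CPM in WT lung, a ratio of lung over PMN of 364-fold (95% counting interval 125 to 1765). Cxcl17, a mucosal chemokine, had 0 counts in WT PMN and 18.9, 22.2 and 31.5 normalised CPM in WT lung, at least 61.9-fold lower in WT PMN.

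Among 14 CC chemokines tested, 11 were higher and 2 lower (9 and 3 under library totals). Without PMN replicate 2, 4 were lower, of 15 then tested. Ccl4 had 23163, 19233 and 14636 normalised CPM in WT PMN, against 0.102, 0.295 and 0.490 in WT lung (log2 fold change 15.98 ± 0.46, adjusted p = 1.61e-14). Ccl3, a ligand of CCR1, had 8910.5, 9390.1 and 6391 in WT PMN, against 0.272, 0.253 and 0.196 in WT lung (log2 fold change 15.03 ± 0.33, adjusted p = 3.88e-17). Both were high in every PMN library and under 1 normalised CPM in every lung library. Ccl6, a CC chemokine of mouse myeloid cells, had 2487, 1543 and 1765 normalised CPM in WT PMN, against 54.2, 51.5 and 63.7 in WT lung (log2 fold change 5.10 ± 0.22, adjusted p = 6.15e-14). Ccl2 and Ccl7, ligands of CCR2, which draws monocytes, were uneven between PMN libraries. Ccl2 had 51.4, 119.6 and 32.5 normalised CPM in WT PMN, against 0.221, 0.422 and 0.392 in WT lung (log2 fold change 7.62 ± 0.77, adjusted p = 3.61e-04). Ccl7 had 65.4, 141 and 26.6 in WT PMN, against 0.442, 0.253 and 0.549 in WT lung (log2 fold change 7.52 ± 0.94, adjusted p = 0.00127). PMN replicate 2 held the highest value of both. The CC chemokines Ccl1 and Ccl28, among others, did not pass the filter, with Ccl1 at 0 counts in all 6 libraries.

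**Figure D4:**
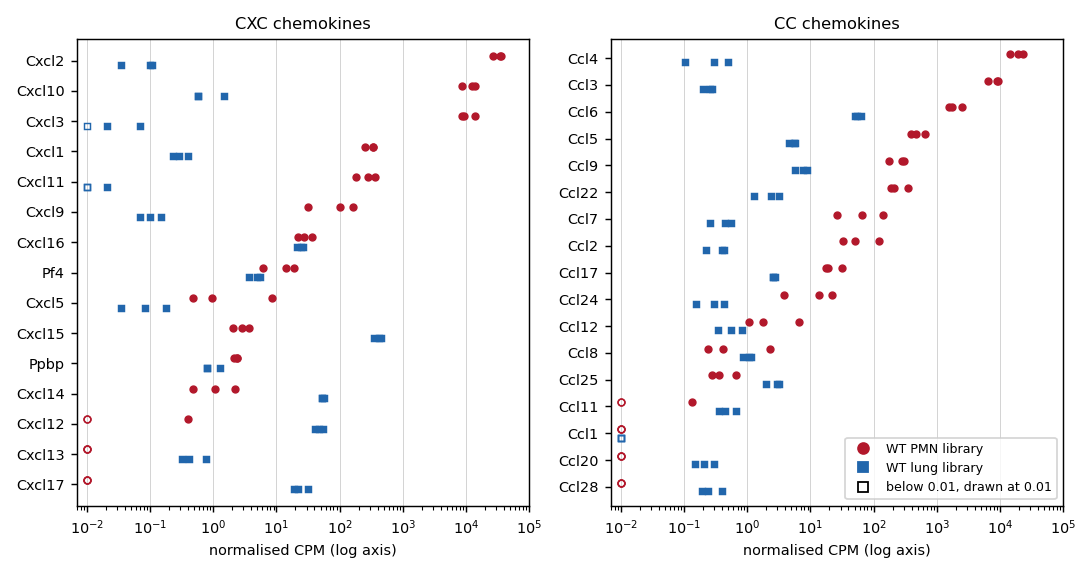
Normalised CPM (log axis) of the listed CXC chemokines (left) and CC chemokines (right), in order of the PMN mean, with red circles for the 3 WT PMN libraries and blue squares for the 3 WT lung libraries; values below 0.01 are drawn open at 0.01. Cxcl2, Cxcl10, Cxcl3, Ccl4 and Ccl3 lie at the top in all WT PMN libraries and under 2 normalised CPM in all WT lung libraries, while Cxcl15, Cxcl14, Cxcl12 and Cxcl17 lie higher in WT lung.

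Promoters are printed for abundant interleukin-1, cytokine, effector and chemokine genes and for surfactant genes. They show the sequence before the starts of transcripts that are abundant in one tissue and lower in the other. They are the 250 bases before the transcript start, from RefSeq on GRCm38.p6, written 5′ to 3′ on the gene's strand, with capitals for letters that match a kB motif. The genes were the 4 with the highest PMN TPM among interleukin-1, cytokine and chemokine genes that have a promoter entry, and the 2 alveolar type 2 genes with the highest lung TPM that have one, without Ccl4 and Sftpc.
Il1b promoter, chr2:129371140-129371389, minus strand: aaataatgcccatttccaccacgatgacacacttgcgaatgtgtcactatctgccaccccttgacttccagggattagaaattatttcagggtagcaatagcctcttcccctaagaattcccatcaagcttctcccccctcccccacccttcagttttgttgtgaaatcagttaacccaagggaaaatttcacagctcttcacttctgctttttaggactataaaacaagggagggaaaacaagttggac
Acod1 promoter, chr14:103046762-103047011, plus strand: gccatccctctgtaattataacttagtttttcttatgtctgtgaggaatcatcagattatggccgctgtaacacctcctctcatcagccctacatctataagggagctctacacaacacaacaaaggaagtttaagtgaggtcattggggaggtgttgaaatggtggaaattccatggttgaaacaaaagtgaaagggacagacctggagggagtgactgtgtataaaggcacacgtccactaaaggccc
Cxcl2 promoter, chr5:90903649-90903898, plus strand: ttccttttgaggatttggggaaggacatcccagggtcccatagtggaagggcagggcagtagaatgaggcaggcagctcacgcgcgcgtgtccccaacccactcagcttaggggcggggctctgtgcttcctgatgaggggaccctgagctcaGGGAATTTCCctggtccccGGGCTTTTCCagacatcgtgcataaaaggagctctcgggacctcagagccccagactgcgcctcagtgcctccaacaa
Ccl3 promoter, chr11:83649379-83649628, minus strand: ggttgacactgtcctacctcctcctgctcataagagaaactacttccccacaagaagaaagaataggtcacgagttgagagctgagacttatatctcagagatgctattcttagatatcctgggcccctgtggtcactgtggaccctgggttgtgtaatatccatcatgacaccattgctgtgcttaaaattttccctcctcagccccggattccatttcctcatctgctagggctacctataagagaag
Sftpb promoter, chr6:72304360-72304609, plus strand: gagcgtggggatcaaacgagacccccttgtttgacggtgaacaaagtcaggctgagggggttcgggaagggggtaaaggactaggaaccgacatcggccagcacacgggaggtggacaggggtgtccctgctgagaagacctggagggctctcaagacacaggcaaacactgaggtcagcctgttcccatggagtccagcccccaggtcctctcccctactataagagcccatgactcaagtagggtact
Sftpa1 promoter, chr14:41131538-41131787, plus strand: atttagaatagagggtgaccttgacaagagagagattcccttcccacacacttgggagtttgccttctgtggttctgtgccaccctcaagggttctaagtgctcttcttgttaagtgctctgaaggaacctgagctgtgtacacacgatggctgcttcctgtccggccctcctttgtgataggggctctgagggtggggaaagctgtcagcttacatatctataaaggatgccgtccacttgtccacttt

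A search of 300-base windows (250 bases before to 50 after the start) on both strands covered 4 motifs, the kB motif (GGG, any 2 bases, then TTTCC), the C/EBP letters TTGCNNAA, the PU.1 letters GAGGAAGT and the forkhead letters TGTTTAC. Of the 6 printed promoters, only that of Cxcl2 held a match. It held 2 kB matches, GGGAATTTCC at 97 to 88 bases and GGGCTTTTCC at 78 to 69 bases before the start, both on the strand as written, which do not overlap. A kB match stood in 2.68% of the 3921 promoters of genes higher in WT PMN, in 1.29% of the 7615 promoters of genes lower in WT PMN, and in 1.63% of all 32851 promoters. A PU.1 match stood in 4.59%, 2.42% and 3.20% of the same sets, a C/EBP match in 10.3%, 9.15% and 10.8%, and a forkhead match in 3.01%, 3.01% and 3.65%. Promoters were found for 2998 of the 4238 genes higher and 6023 of the 8229 lower, and a gene can have several. Matches describe letters only and were not tested.

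All 25 NF-kB subunit and feedback genes tested were higher in WT PMN under TMM, and 23 were higher and 0 lower under library totals. Nfkbia, the inhibitor that NF-kB induces against itself, had 24758, 19696 and 16169.8 normalised CPM in WT PMN, against 64.3, 68.0 and 64.5 in WT lung (log2 fold change 8.27 ± 0.25, adjusted p = 4.61e-16). Tnfaip3, the ubiquitin-editing enzyme A20, had 17789, 20250 and 17642 in WT PMN, against 9.25, 8.73 and 8.61 in WT lung (log2 fold change 11.03 ± 0.26, adjusted p = 4.11e-17). Socs3, an inhibitor of cytokine signalling, had 20308, 19929.5 and 16622 in WT PMN, against 14.1, 10.5 and 13.2 in WT lung (log2 fold change 10.55 ± 0.27, adjusted p = 6.81e-17). Nfkbiz, a nuclear cofactor of NF-kB, had 10814, 10526 and 10636 in WT PMN, against 9.90, 7.38 and 12.2 in WT lung (log2 fold change 10.08 ± 0.28, adjusted p = 1.40e-16). Per length in WT PMN, the inhibitors Nfkbia, Socs3 and Tnfaip3 were at ranks 12, 19 and 55, ahead of the subunits Nfkb1, Rela and Rel at ranks 369, 438 and 450. Nfkb1 averaged 3599.6 ± 355 normalised CPM in WT PMN and 36.0 ± 3.95 in WT lung, Rel averaged 1712 ± 119 in WT PMN and 5.10 ± 0.676 in WT lung, and Rela averaged 640.3 ± 95.7 in WT PMN and 31.5 ± 2.08 in WT lung. Gpr84, a receptor of medium-chain fatty acids, had 673, 570.3 and 487 in WT PMN and 2 counts over the lung libraries, a ratio of 44990.2-fold (95% counting interval 12455 to 371499). Tnip2, an A20 partner, was the smallest change, with a log2 fold change of 2.02 under TMM (adjusted p = 1.74e-09) but −0.52 under library totals.

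Among 25 immediate early genes, 22 were higher and 1 lower (18 and 3 under library totals). Junb, an AP-1 subunit, had 13786, 10969.6 and 9119 normalised CPM in WT PMN, against 37.7, 29.4 and 34.8 in WT lung (log2 fold change 8.38 ± 0.26, adjusted p = 4.83e-16). Jun had 116, 129 and 109 in WT PMN, against 122, 88.4 and 77.5 in WT lung and was not called (log2 fold change 0.30 ± 0.17, adjusted p = 0.113), but was called lower under library totals at −2.26. Fosl2, another AP-1 subunit, averaged 7742 ± 369 normalised CPM in WT PMN and 31.4 ± 4.54 in WT lung, and Fos averaged 341 ± 39.0 in WT PMN and 9.64 ± 2.23 in WT lung. Of the orphan nuclear receptors, Nr4a1 averaged 5701 ± 1376 in WT PMN and 16.9 ± 5.83 in WT lung, and Nr4a3 averaged 2658 ± 111 in WT PMN and 1.94 ± 0.768 in WT lung. Dusp1, a phosphatase that shuts down p38 kinase, had 13557, 12098 and 10134 normalised CPM in WT PMN, against 64.6, 48.4 and 59.3 in WT lung (log2 fold change 7.70 ± 0.24, adjusted p = 6.31e-16). Klf4, a factor of epithelium, endothelium and monocytes, was the 1 gene lower, at 4.96, 5.06 and 3.96 in WT PMN, against 98.0, 76.6 and 71.8 in WT lung (log2 fold change −4.14 ± 0.20, adjusted p = 3.89e-13).

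Interferon-stimulated genes were higher without exception under TMM. All 31 tested were called, with a median log2 fold change of 8.03, and 30 were higher and 0 lower under library totals. Rsad2, viperin, an antiviral enzyme, had 20729, 22717 and 16616 normalised CPM in WT PMN, against 1.24, 1.37 and 1.08 in WT lung (log2 fold change 13.99 ± 0.30, adjusted p = 3.88e-17). Isg15, a ubiquitin-like modifier, had 6071, 4392 and 3477 in WT PMN, against 11.02, 7.24 and 6.04 in WT lung (log2 fold change 9.16 ± 0.33, adjusted p = 2.89e-14). Irf7, the factor that amplifies type I interferon, had 5626, 5498 and 3784 in WT PMN, against 9.90, 8.44 and 7.36 in WT lung (log2 fold change 9.18 ± 0.27, adjusted p = 2.69e-16). Of the family that senses double-stranded RNA, Oasl1 averaged 3593 ± 599 normalised CPM in WT PMN and 0.822 ± 0.400 in WT lung, and Oas3 averaged 4623 ± 114 in WT PMN and 0.719 ± 0.0833 in WT lung. Gbp5, a guanylate-binding protein, averaged 5002 ± 904 in WT PMN and 4.46 ± 1.01 in WT lung. All of these were high in each PMN library. Mx1, of the Mx GTPase family, was modest and uneven at 109, 249.7 and 143 normalised CPM in WT PMN, against 1.05, 0.823 and 1.12 in WT lung (log2 fold change 7.38 ± 0.35, adjusted p = 5.44e-10). Ifit3 and Ifit3b are near-identical, so their separate values are uncertain.

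Genes of inflammasomes and lytic cell death were higher in 12 of 13 cases and lower in 0 (10 and 1 under library totals). Nlrp3, the sensor of the best-known inflammasome, had 11884, 11542 and 11846 normalised CPM in WT PMN, against 0.578, 0.991 and 0.981 in WT lung (log2 fold change 13.76 ± 0.31, adjusted p = 4.10e-17). Mefv, which encodes pyrin, had 1428, 1282 and 1313 in WT PMN, against 0.306, 0.148 and 0.275 in WT lung (log2 fold change 12.38 ± 0.28, adjusted p = 4.10e-17). Pycard, the adaptor ASC that joins sensors to caspase-1, had 4.13, 3.46 and 1.20 in WT PMN, against 6.99, 4.13 and 5.10 in WT lung and was not called (log2 fold change −0.91 ± 0.34, adjusted p = 0.0193). Under library totals Pycard was called lower at −3.48, as it was without PMN replicate 1 (−1.19, adjusted p = 0.0191), PMN replicate 2 (−1.06, adjusted p = 0.0277) or lung replicate 2 (−1.08, adjusted p = 0.0105). Casp4, which binds LPS in the cytosol, had 1895, 1672 and 1454 normalised CPM in WT PMN, against 7.94, 7.87 and 10.2 in WT lung (log2 fold change 7.59 ± 0.23, adjusted p = 3.65e-16). Casp1 had 397, 428 and 282 in WT PMN, against 3.72, 3.52 and 4.63 in WT lung (log2 fold change 6.54 ± 0.22, adjusted p = 1.98e-15). Gsdmd, the pore protein they cleave, had 253, 276 and 216 in WT PMN, against 19.5, 18.6 and 22.5 in WT lung (log2 fold change 3.62 ± 0.17, adjusted p = 2.26e-13).

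In the Bcl2 family of apoptosis regulators, 9 of 14 genes were higher and 3 lower (6 and 5 under library totals). Mcl1, the main survival protein of neutrophils, had 11034, 8048 and 8347 normalised CPM in WT PMN, against 218, 203 and 210.2 in WT lung (log2 fold change 5.44 ± 0.21, adjusted p = 1.16e-14). The Bcl2a1 copies encode the survival protein A1 and, being near-identical, cannot be separated with certainty. Bcl2a1a averaged 782 ± 196 normalised CPM in WT PMN and 3.03 ± 0.806 in WT lung, Bcl2a1b averaged 459.7 ± 157 in WT PMN and 1.32 ± 0.167 in WT lung, and Bcl2a1d averaged 904 ± 213 in WT PMN and 3.58 ± 0.528 in WT lung. Bcl2 itself was lower, at 2.48, 2.80 and 2.04 in WT PMN, against 6.10, 7.45 and 7.20 in WT lung (log2 fold change −1.51 ± 0.25, adjusted p = 1.92e-05). The death promoter Bcl2l11, BIM, was higher, at 1463, 1279 and 1457 in WT PMN, against 9.69, 8.71 and 10.9 in WT lung (log2 fold change 7.16 ± 0.21, adjusted p = 2.83e-16). Survival genes of the family thus moved in both directions, with Mcl1 and the Bcl2a1 copies higher and Bcl2 lower.

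Of 15 genes of leukotriene and prostaglandin metabolism, 9 were higher and 6 lower (7 and 7 under library totals). Alox5 and its partner Alox5ap start leukotriene synthesis. Alox5 averaged 105 ± 14.5 normalised CPM in WT PMN and 3.50 ± 0.365 in WT lung, and Alox5ap averaged 321 ± 58.5 in WT PMN and 7.94 ± 0.318 in WT lung. Lta4h, which makes leukotriene B4, was lower at 9.78, 4.00 and 11.3 in WT PMN, against 19.3, 21.4 and 18.1 in WT lung (log2 fold change −1.22 ± 0.26, adjusted p = 3.30e-04), and without PMN replicate 2 it was −0.90, adjusted p = 3.71e-04, not called. Ptgis, prostacyclin synthase of vessel walls, was lower at 0, 0.799 and 0 in WT PMN, against 67.3, 46.5 and 46.1 in WT lung (log2 fold change −7.66 ± 0.49, adjusted p = 7.47e-09). Hpgd, which inactivates prostaglandins, had 0 counts in WT PMN and 218, 217 and 228 normalised CPM in WT lung, at least 565-fold lower in WT PMN.

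Transcription factors of the 2 lineages were set side by side. Of 18 myeloid factors, 15 were higher and 2 lower (12 and 3 under library totals). Spi1, which encodes PU.1, had 635, 456 and 529 normalised CPM in WT PMN, against 10.3, 10.4 and 8.16 in WT lung (log2 fold change 5.81 ± 0.21, adjusted p = 3.19e-15). Cebpb, the C/EBP factor of emergency granulopoiesis, had 6643, 4666 and 5145 in WT PMN, against 75.3, 59.4 and 55.4 in WT lung (log2 fold change 6.44 ± 0.23, adjusted p = 4.41e-15). Mxd1, a MYC antagonist of maturing granulocytes, had 19019, 17061 and 16912 in WT PMN, against 12.1, 13.3 and 13.1 in WT lung (log2 fold change 10.43 ± 0.25, adjusted p = 4.63e-17). Cebpa and Cebpe act earlier in granulocyte development. Cebpa was lower at 29.8, 22.4 and 15.7 in WT PMN, against 70.3, 90.9 and 62.5 in WT lung (log2 fold change −1.72 ± 0.21, adjusted p = 4.77e-07), and Cebpe gave 37, 33 and 32 counts in WT PMN, against 0, 0 and 1 in WT lung. Of 24 lung factors, 23 were lower and 1 higher, and under library totals 23 were lower and 0 higher. Nkx2-1, the master factor of lung epithelium, had 0 counts in WT PMN and 109.8, 107 and 103 normalised CPM in WT lung, at least 273-fold lower in WT PMN. Foxf1, a factor of lung mesenchyme and endothelium, also had 0 counts in WT PMN and 99.0, 109 and 112 in WT lung, at least 273-fold lower. Id1, an inhibitor of basic helix-loop-helix factors, was the exception, with 356, 253 and 213 in WT PMN, against 47.1, 44.7 and 56.8 in WT lung and a log2 fold change of 2.47 under TMM (adjusted p = 4.79e-10) but −0.12 under library totals.

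Genes of glycolysis and its regulation were mostly higher in WT PMN, and those of oxidative phosphorylation were not. Of 29 glycolysis and hypoxia genes, 24 were higher and 4 lower under TMM, with 14 and 8 under library totals. Slc2a6, a glucose transporter of the lysosome, had 1507, 1433 and 1346 normalised CPM in WT PMN, against 0.833, 1.18 and 1.39 in WT lung (log2 fold change 10.30 ± 0.26, adjusted p = 6.77e-17). Hk3, a hexokinase of myeloid cells, had 547, 574 and 539.6 in WT PMN, against 1.24, 1.14 and 1.04 in WT lung (log2 fold change 8.92 ± 0.21, adjusted p = 5.22e-17). Slc16a3, the lactate exporter, had 3213, 2001 and 3131 in WT PMN, against 9.06, 9.75 and 10.1 in WT lung (log2 fold change 8.17 ± 0.25, adjusted p = 5.66e-16). Pkm, pyruvate kinase, had 4270.3, 3335 and 3178 in WT PMN, against 121, 121 and 98.8 in WT lung (log2 fold change 4.99 ± 0.21, adjusted p = 2.83e-14). Ldha, the lactate dehydrogenase of glycolytic cells, had 442, 348 and 379 in WT PMN, against 177, 169.8 and 168 in WT lung, with a log2 fold change of 1.18 under TMM (adjusted p = 8.36e-07) and −1.38 under library totals, which called it lower. Ldhb, the form of oxidative tissues, was lower at 0.964, 1.33 and 1.20 in WT PMN, against 116, 129 and 111 in WT lung (log2 fold change −6.66 ± 0.23, adjusted p = 1.69e-15). Slc2a6, Hk3 and Slc16a3 were thus higher under both scalings, and Ldha under TMM alone.

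All 12 genes of the mitochondrial genome tested were lower in WT PMN. All mitochondrial features of the table, rRNA and tRNA genes included, took 0.156% ± 0.00562 of counts in WT PMN and 2.37% ± 0.440 in WT lung (SD, n = 3 each). The gene mt-Co1, of cytochrome oxidase, had 861, 1102 and 866 normalised CPM in WT PMN, against 3117, 2480 and 3962 in WT lung (log2 fold change −1.76 ± 0.19, adjusted p = 8.35e-08). The gene mt-Nd2, of complex I, had 106, 121 and 92.9 in WT PMN, against 1197, 908 and 1239.8 in WT lung (log2 fold change −3.39 ± 0.19, adjusted p = 2.94e-12). mt-Co2, mt-Co3 and mt-Atp6 gave few counts in both tissues, and mitochondrial genes have copies in the nuclear genome, so their levels are uncertain. Of 29 nuclear genes of the respiratory chain, 0 were higher and 13 lower under TMM, and all 29 were lower under library totals. Without PMN replicate 3, 2 were called higher under TMM, and 1 without PMN replicate 2 or lung replicate 3. Their median log2 fold change was −0.94, close to the −1.14 of all genes. Ribosomal protein genes took 0.408% ± 0.0182 of counts in WT PMN and 5.81% ± 0.820 in WT lung. Rps14, of the small subunit, had 241, 194 and 186 normalised CPM in WT PMN, against 894, 622 and 773 in WT lung (log2 fold change −1.88 ± 0.18, adjusted p = 1.00e-08). Rplp1, of the large subunit, had 200.2, 159 and 142 in WT PMN, against 616, 477 and 580.1 in WT lung (log2 fold change −1.74 ± 0.18, adjusted p = 2.18e-08). Both have processed copies that make their counts uncertain.

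Most cell cycle genes were not called under TMM. Of 23, 2 were higher and 5 lower under TMM (1 and 22 under library totals), and 1 was higher without PMN replicate 2, PMN replicate 3, lung replicate 1 or lung replicate 3. Without PMN replicate 1, 3 were higher and 4 lower. Cdk1, the kinase of mitosis, had 0.827, 1.07 and 1.56 normalised CPM in WT PMN, against 1.62, 2.45 and 2.28 in WT lung (log2 fold change −0.86 ± 0.39, adjusted p = 0.0452) and was not called, but it was called lower without PMN replicate 3 (−1.09, adjusted p = 0.0363) or lung replicate 1 (−1.05, adjusted p = 0.0318). Mki67, the Ki-67 proliferation marker, was 1 of the 2 genes higher under TMM, with 114, 157 and 141 in WT PMN, against 2.98, 3.63 and 4.12 in WT lung (log2 fold change 5.26 ± 0.20, adjusted p = 8.50e-15).

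RAGE, the receptor that the study altered, was itself a lung transcript. Ager had 37, 15 and 26 counts in WT PMN, against 65695, 48448 and 39913 in WT lung, or 5.10, 2.00 and 3.12 normalised CPM in WT PMN, against 1117, 1022 and 783 in WT lung (log2 fold change −8.17 ± 0.29, adjusted p = 4.89e-15). Every PMN library was far below every lung library. The list of RAGE and its ligands, Ager included, went both ways, with 5 of 12 tested genes higher and 6 lower (3 and 7 under library totals). Its 50% lower under TMM was near the 50.7% of all genes, and under library totals 77.8% of all genes were lower. S100a8 and S100a9 were higher in WT PMN, with log2 fold changes of 10.88 ± 0.32 and 11.31 ± 0.30. S100a11, a further S100 ligand, had 3187, 2178 and 2045 normalised CPM in WT PMN, against 141, 140.4 and 129 in WT lung (log2 fold change 4.17 ± 0.21, adjusted p = 4.83e-13). Hmgb1, the nuclear alarmin, was lower at 38.3, 33.4 and 40.3 in WT PMN, against 173, 161 and 163 in WT lung (log2 fold change −2.15 ± 0.15, adjusted p = 1.49e-10). S100a1 was lower at 1.65, 2.40 and 1.56 in WT PMN, against 88.4, 67.5 and 87.1 in WT lung (log2 fold change −5.44 ± 0.23, adjusted p = 4.10e-14). S100a4 did not pass the filter, at 4, 6 and 5 counts in WT PMN, against 20, 8 and 5 in WT lung.

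Heparan sulfate, the glycan that holds RAGE in oligomers, was covered by 24 tested genes, of which 4 were higher and 16 lower in WT PMN, and 0 and 22 under library totals. Without PMN replicate 2, 2 were higher, of 26 then tested. Hs2st1, the 2-O-sulfotransferase, had 0.689, 1.47 and 1.56 normalised CPM in WT PMN, against 62.2, 61.5 and 46.4 in WT lung (log2 fold change −5.50 ± 0.26, adjusted p = 2.06e-13). Ext2, of the chain polymerase, had 2.20, 4.13 and 5.04 in WT PMN, against 25.1, 29.98 and 22.4 in WT lung (log2 fold change −2.75 ± 0.24, adjusted p = 2.94e-09). Ext1, its partner, had 18.9, 34.2 and 20.9 in WT PMN, against 16.8, 17.5 and 12.7 in WT lung and was not called (log2 fold change 0.65 ± 0.21, adjusted p = 0.00772), but was called lower under library totals at −1.90. The core protein Gpc3 was at 0.138, 0.266 and 0.120 in WT PMN, against 219, 113 and 82.6 in WT lung (log2 fold change −9.61 ± 0.67, adjusted p = 2.40e-06). Sdc4, a syndecan of many cells, was higher under TMM and lower under library totals, with 200.2, 289 and 275 in WT PMN, against 123, 128 and 116 in WT lung and log2 fold changes of 1.06 (adjusted p = 7.03e-06) and −1.48, and without PMN replicate 2 it was 0.96, adjusted p = 1.18e-04, not called under TMM.

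Transcripts of lung structure were mostly lower or absent in WT PMN. Of 15 alveolar type 1 genes 14 were lower, of 17 alveolar type 2 genes 14, of 16 club and ciliated cell genes 12, and of 20 endothelial genes 19, against 50.7% of all genes. Under library totals they were 15, 16, 13 and 20, against 77.8% of all genes, so the club and ciliated count was near that share. Sftpc, surfactant protein C, gave 0, 1 and 0 counts in WT PMN and 14401, 12032 and 13206 normalised CPM in WT lung, a ratio of lung over PMN of 307198-fold (95% counting interval 55136 to 12133700). Scgb1a1 gave 1, 0 and 0 counts in WT PMN and 32903, 31876 and 29948 normalised CPM in WT lung, a ratio of 730748-fold (95% counting interval 131155 to 28863000). Sftpa1 had 0 counts in all PMN libraries and 1662, 1778 and 1291 normalised CPM in WT lung, at least 4033-fold lower in WT PMN. Cldn18, a tight junction protein of alveoli, was also at 0 counts in WT PMN and at 447, 445 and 361 in WT lung, at least 1068-fold lower. Cldn5, the claudin of endothelium, was at 0 counts in WT PMN and at 148, 146 and 168 in WT lung, at least 395-fold lower. Sftpc, Scgb1a1, Sftpa1, Cldn18 and Cldn5 were thus at 0 or 1 count over the PMN libraries. The members higher in WT PMN were Lcn2 and, under TMM alone, Hp, both given above with the granules. Pdpn, Napsa, Muc1 and Pecam1, listed for lung epithelium or endothelium, were not called under TMM, with log2 fold changes of −0.56, −0.07, −0.98 and −0.03 (adjusted p = 0.00479, 0.677, 3.20e-05 and 0.853), and all 4 were called lower under library totals. Muc1 was also called lower without PMN replicate 2 (−1.09, adjusted p = 6.66e-05) or lung replicate 3 (−1.10, adjusted p = 4.32e-05). Bpifa1, an airway secretion, had 0 counts in WT PMN and 272, 23.4 and 949 normalised CPM in WT lung, at least 1061-fold lower in WT PMN on average. With these uneven lung values it was not called (adjusted p = 0.0792), but it was called lower by DESeq2 (adjusted p = 2.22e-09), in the fit of all 20 libraries, with the replicate block, in the limma fits on FPKM and in the fit that was not robust.

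Of 22 fibroblast and matrix genes 16 were lower and 1 higher, and of 14 muscle genes 11 were lower and 2 higher. Of all genes 50.7% were lower under TMM. Under library totals 17 and 13 genes of these lists were lower and 0 higher. There 77.8% of all genes were lower, so the fibroblast and matrix count was near that share. Without PMN replicate 2, 7 muscle genes were lower and 1 higher, of 15 then tested. Acta2, listed for smooth muscle, was 1 of the 2 muscle genes higher under TMM, with a PMN level at 723% of its lung level. Inmt, a methyltransferase of lung fibroblasts, had 0 counts in WT PMN and 1116, 841 and 943 normalised CPM in WT lung, at least 2473-fold lower. Sparc, a matrix protein, had 3.17, 34.4 and 0.360 normalised CPM in WT PMN, against 732, 804 and 583 in WT lung (log2 fold change −5.82 ± 1.45, adjusted p = 0.0173), and without PMN replicate 1 it was not called (−5.27, adjusted p = 0.0618). Fn1, fibronectin, was the member higher in WT PMN, at 318, 602 and 391 in WT PMN, against 40.3, 41.6 and 35.2 in WT lung with a log2 fold change of 3.48 ± 0.22 under TMM (adjusted p = 2.69e-11), and 0.94 and not called under library totals. Collagen genes depended on 1 PMN library. Col1a1 had 14.3, 198 and 10.3 in WT PMN, against 25.3, 28.6 and 22.1 in WT lung and was not called (log2 fold change 1.55 ± 1.30, adjusted p = 0.317), with −1.02 under library totals. Col3a1 had 4.68, 201 and 2.04 in WT PMN, against 107, 107 and 82.4 in WT lung (log2 fold change −0.52 ± 1.67, adjusted p = 0.786). PMN replicate 2 was above the lung values for both, and PMN replicates 1 and 3 were below them. Without PMN replicate 2 the log2 fold change of Col1a1 was −1.05 (adjusted p = 2.10e-04) and that of Col3a1 −4.91 (adjusted p = 2.97e-10). Of skin keratinocyte markers, Krt5, Krt14, Krt1 and Krt10 had 0 counts in the PMN libraries.

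**Figure D5:**
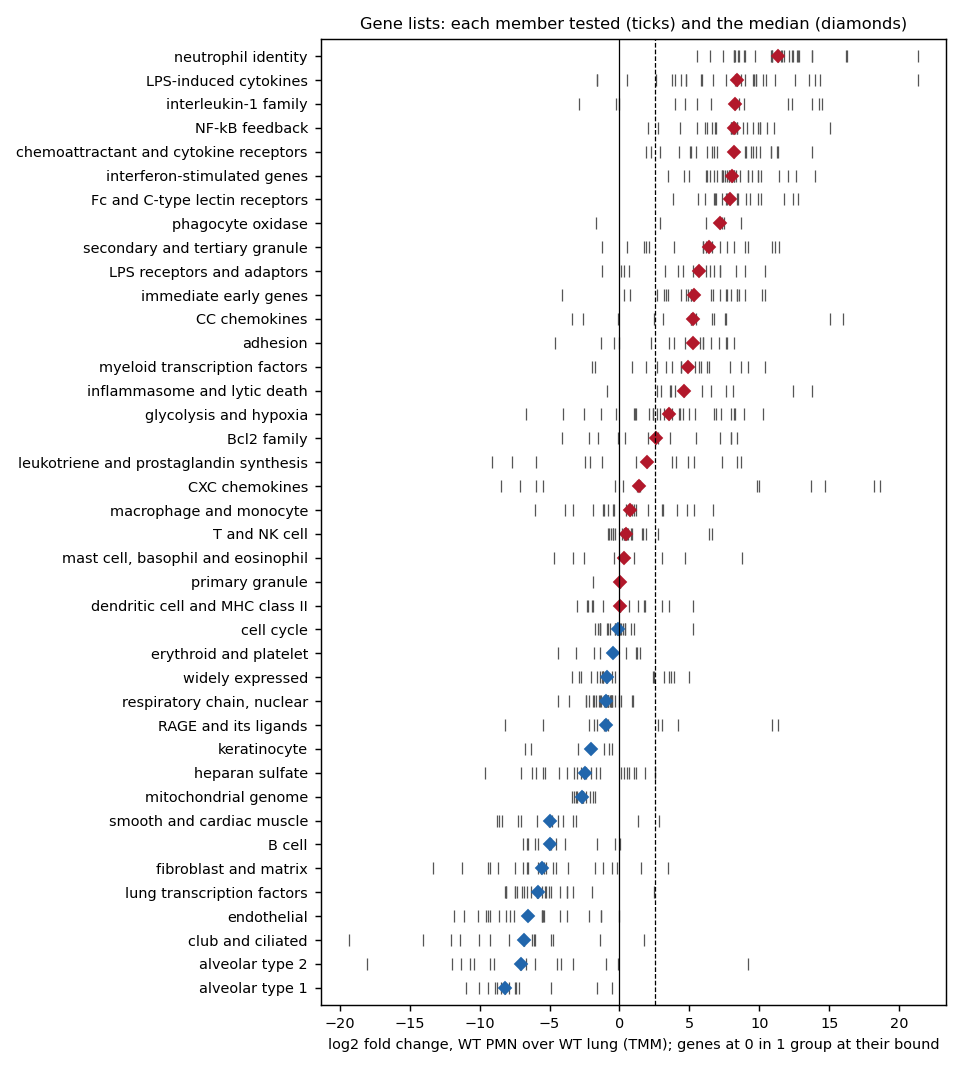
Log2 fold change of WT PMN over WT lung under TMM for the tested members of each gene list (ticks) and their median (diamonds, red above 0 and blue below), with genes at 0 counts in one tissue drawn at their bound. The solid line marks 0 and the dashed line the 2.54 by which library totals lower the values; the neutrophil identity list has a median of 11.32 and the alveolar type 1 list one of −8.17.

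Markers of other leukocytes moved in both directions, and their part in the results above was not tested. Of 21 macrophage and monocyte genes 9 were higher and 5 lower in WT PMN (4 and 14 under library totals), and their summed level was 2155 to 2353 normalised CPM in WT PMN and 3966 to 4353 in WT lung. Lyz2, given above with the granules, carried most of the lung sum. It had 3927, 3596 and 3814 normalised CPM in WT lung, against 964, 1075 and 1036 in WT PMN. The direction of the sums thus rests on Lyz2, and the rest of the list summed higher in WT PMN. Adgre1, which encodes the F4/80 antigen of macrophages, had 168, 169 and 129 normalised CPM in WT PMN, against 6.38, 5.46 and 4.45 in WT lung (log2 fold change 4.83 ± 0.20, adjusted p = 2.32e-14). Csf1r, the receptor of macrophage colony-stimulating factor, had 274, 211 and 253 in WT PMN, against 29.2, 29.1 and 26.2 in WT lung, with a log2 fold change of 3.13 under TMM (adjusted p = 1.29e-12) and 0.57 under library totals, not called there. C1qa, of the complement C1q made by macrophages, had 8.95, 9.72 and 4.92 in WT PMN, against 13.9, 13.2 and 13.8 in WT lung and was not called (log2 fold change −0.80 ± 0.22, adjusted p = 0.00221). Marco, a scavenger receptor of alveolar macrophages, had 0, 1 and 0 counts in WT PMN, against 229, 147 and 118 in WT lung. The macrophage genes named here, apart from Marco, were thus counted in every PMN library.

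Genes of MHC class II and dendritic cells went both ways and depended on the scaling. H2-Ab1 had 186, 216 and 181 normalised CPM in WT PMN, against 192, 209 and 177 in WT lung (log2 fold change 0.01 ± 0.15, adjusted p = 0.954), and under library totals it was called lower at −2.55. Cd74, the chaperone of MHC class II, had 1280.4, 1311 and 854 in WT PMN, against 339, 426 and 278 in WT lung and a log2 fold change of 1.72 under TMM (adjusted p = 1.62e-07) but −0.85 under library totals. Ccr7, the receptor of migrating dendritic cells, had 191, 326 and 207 in WT PMN, against 7.41, 5.91 and 5.90 in WT lung (log2 fold change 5.23 ± 0.23, adjusted p = 8.15e-14). Among the 15 genes tested of dendritic cells and MHC class II, 6 were higher and 6 lower (1 and 10 under library totals). Under TMM these were 40% and 40%, against 26.1% and 50.7% of all genes. The share of the list lower under library totals did not exceed the 77.8% of all genes.

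Of 21 T and NK cell genes 6 were higher and 0 lower under TMM (2 and 15 under library totals). The 28.6% higher under TMM was near the 26.1% of all genes, while 50.7% of all genes were lower there. Under library totals 11.7% of all genes were higher and 77.8% lower, so both counts of the list were near these shares. Cd3e, of the T cell receptor complex, had 1.10, 1.86 and 3.72 normalised CPM in WT PMN, against 1.48, 1.24 and 0.981 in WT lung and was not called (log2 fold change 0.87 ± 0.41, adjusted p = 0.0549), with a log2 fold change of −1.65 under library totals and, called, of 1.21, adjusted p = 0.0124 without PMN replicate 1. Ncr1, an NK cell receptor, had 2.34, 0.932 and 2.64 in WT PMN, against 1.38, 1.29 and 1.28 in WT lung and was not called (log2 fold change 0.59 ± 0.39, adjusted p = 0.160), with −1.95 under library totals. Gzmb, a granzyme of cytotoxic cells, was higher at 92.4, 153 and 118 in WT PMN, against 1.04, 1.43 and 1.73 in WT lung (log2 fold change 6.44 ± 0.25, adjusted p = 1.36e-14). Ccl5, a chemokine of T cells and macrophages, at 467, 663 and 386 in WT PMN, against 4.64, 5.63 and 5.41 in WT lung (log2 fold change 6.59 ± 0.24, adjusted p = 3.75e-15). Of 12 B cell genes 10 were lower under TMM and 12 under library totals, against 50.7% and 77.8% of all genes. The defining genes Ms4a1 and Cd79b had 0 counts in WT PMN. Ighm and Blk were not called under TMM, and the PMN level of Ighm was 103% of its lung level. Among genes of mast cells, basophils and eosinophils, Ccr3, the eotaxin receptor of eosinophils, was higher at 13.6, 13.7 and 11.4 in WT PMN, against 0.0510, 0.0211 and 0 in WT lung (log2 fold change 8.77 ± 0.41, adjusted p = 1.71e-13), while the eosinophil peroxidase gene Epx had 0 counts in all 6 libraries. Hbb-bs, a globin of red cells, had 0.413, 0 and 10.9 in WT PMN, against 33.6, 33.9 and 34.1 in WT lung and was not called (log2 fold change −3.10 ± 1.14, adjusted p = 0.0576), with nearly all PMN counts in replicate 3, without which it was called lower at −7.29, adjusted p = 1.49e-09. Pf4, a platelet chemokine, was at 14.1, 19.2 and 6.24 in WT PMN, against 4.88, 3.73 and 5.45 in WT lung, with log2 fold changes of 1.48 under TMM (adjusted p = 7.04e-04) and −1.10 under library totals.

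Outside the lists, the genes with the largest changes at a mean of at least 50 normalised CPM added other families. Lilr4b, an immunoglobulin-like receptor of myeloid cells, had 15716, 17823 and 13845 normalised CPM in WT PMN, against 3.13, 2.78 and 3.47 in WT lung (log2 fold change 12.30 ± 0.28, adjusted p = 4.10e-17). Tarm1, an activating receptor of neutrophils, had 1703, 1502 and 1194 in WT PMN, against 0.0340, 0.0844 and 0.0196 in WT lung (log2 fold change 14.88 ± 0.35, adjusted p = 4.35e-17). Slc7a11, the cystine importer that feeds glutathione, had 4642, 5265 and 5965 in WT PMN, against 0.714, 1.10 and 0.667 in WT lung (log2 fold change 12.65 ± 0.30, adjusted p = 4.63e-17). Serpinb2, plasminogen activator inhibitor 2, had 665, 585 and 812 in WT PMN, against 0.0680, 0.0844 and 0.118 in WT lung (log2 fold change 12.85 ± 0.30, adjusted p = 4.11e-17). Trim30c, of the TRIM30 family of mouse, had 929, 1084 and 668 in WT PMN, against 0.0510, 0.0211 and 0 in WT lung (log2 fold change 14.88 ± 0.39, adjusted p = 1.14e-16). Each was above 500 normalised CPM in every PMN library and under 4 in every lung library. Gm2511, a long noncoding RNA, had 133, 131 and 103 in WT PMN and 0 counts in WT lung, at least 2124-fold higher. Gm5416 had 70.7, 40.2 and 45.1 in WT PMN and 0 counts in WT lung, at least 901-fold higher. B230303A05Rik, Gm44165 and Ceacam18 gave 1, 1 and 1 count over the lung libraries.

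By level per length, the genes outside the lists that were higher in WT PMN were led, after Fth1, Marcksl1 and Srgn, by Ifitm3, an antiviral membrane protein, at 9135, 8756 and 6917 TPM in WT PMN, against 628, 526 and 543 in WT lung. Plek, pleckstrin, a protein kinase C substrate of blood cells, was at 5485, 5467 and 6059 in WT PMN, against 14.4, 10.1 and 12.5 in WT lung. Gadd45b, Slfn2 and Cd53 followed, together with the MHC class I genes H2-D1 and H2-K1, whose close relatives make the split of reads uncertain. Gadd45b, a stress gene induced by NF-kB, stood at 4770.1, 4621 and 4255 TPM in WT PMN, against 144, 96.3 and 132 in WT lung. All of these were also higher under library totals.

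In the lower direction, Cbr2, a carbonyl reductase of club cells in mouse lung, had 0.551, 0.932 and 0.720 normalised CPM in WT PMN, against 3105, 3626 and 3097 in WT lung (log2 fold change −12.11 ± 0.29, adjusted p = 4.63e-17). Other genes named by the size of their fitted change had 0 counts in WT PMN, so that their folds are bounds, and several handle foreign compounds. Aldh1a1, an aldehyde dehydrogenase, had 874, 1062 and 850.2 normalised CPM in WT lung and was at least 2375-fold lower in WT PMN. Fmo2, a flavin monooxygenase of lung, had 656, 571 and 497 in WT lung and was at least 1469-fold lower. Cyp4b1, a cytochrome P450 of lung, had 259, 284 and 271 in WT lung and was at least 695-fold lower. The others at 0 counts in WT PMN were Wfdc2, Cavin2, Mal2, Gsta3, Cyp2a5, Myh14 and Cyp2b10, with bounds of at least 1931-fold for Wfdc2 to at least 386-fold for Cyp2b10. The genes highest per length in lung and lower in PMN were otherwise ribosomal protein genes, Rpl17, Rps15, Rpl36, Rps3a1, Rpl41 and Rps21 besides Rps14 and Rplp1.

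Among the 3 PMN libraries, most abundant genes varied little. Of 2780 genes with a PMN mean of at least 50 normalised CPM, 32 (1.15%) differed by more than 2-fold between the highest and the lowest PMN library, and of 1376 such genes in WT lung 13 (0.945%) did. The biological coefficient of variation was 20.6% in WT PMN and 15.6% in WT lung. The 5 genes with the largest spread in WT PMN were Col3a1, Col1a1, Ulk1, Ccl7 and Cxcl9. Ulk1, a kinase that starts autophagy, had 764, 51.4 and 885 normalised CPM in WT PMN, against 19.6, 20.2 and 85.7 in WT lung (log2 fold change 3.76 ± 1.40, adjusted p = 0.0588), with PMN replicate 2 far below the other PMN libraries and lung replicate 3 above the other lung libraries, and it was called higher without PMN replicate 2 (4.29, adjusted p = 0.0191). Cxcl9, Ccl7 and Col1a1 were instead highest in PMN replicate 2.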

How the data were processed

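RNA was sequenced from pouch PMN and perfused lung. According to the submitters' processing notes the tools were CASAVA, fastp, STAR and featureCounts, with the genome build mm10. Tool versions, the strand setting and the handling of multi-mapping reads were not found in the labels or the methods, so reads of a gene and its antisense partner, or of near-identical copies, cannot be told apart. The authors deposited a table of whole-number counts for 54532 genes with gene lengths, and a table of FPKM. In the deposited FPKM each library was divided by a constant that is not its total count, 5691894 to 6688477 in WT PMN and 40241729 to 58323082 in WT lung. Its ratio to the TMM library size was 0.873, 0.891 and 0.683 for PMN replicates 1, 2 and 3 and 0.992, 0.992 and 0.789 for lung replicates 1, 2 and 3, so replicate 3 of both tissues was scaled apart from the others, and how the authors set it is not given. The deposited tables of the authors' own comparisons hold fold changes and p-values of mutants against WT and were not used.
Groups came from the sample labels. Counts of the 6 libraries, at a depth of 18226486 to 24683586 counts, were fitted with edgeR 4.0.16 (R 4.3.3), using filterByExpr, TMM and the robust quasi-likelihood test, with Benjamini-Hochberg adjustment over the 16227 genes tested. Where a tissue had 0 counts, the fold was bounded with a floor of 3 counts per library, and with 1 to 3 counts an exact Poisson interval (95%) was given. Intervals and floors cover counting error only. TPM were computed from counts and the deposited gene lengths. No 2 libraries of a group agreed within sampling noise (chi-square per degree of freedom 17.6 to 52.4). The fit was run on simulated counts in which a small set of genes was changed, equally often up and down, on the lung profile. That setting lacks the broad and unequal differences of these libraries, so it does not test the scaling used here. Promoter sequences were read by gene symbol from RefSeq tables on GRCm38.p6, and coordinates are on that build. Figures were drawn with matplotlib 3.10.9 (Python 3.11.15).
Alternatives were RLE, upper-quartile and library-total scaling, no filter or a filter of 1 CPM in 3 libraries, DESeq2 1.42.0, a fit of all 20 libraries, the replicate number as a block, each library left out in turn, limma 3.58.1 on the deposited FPKM as log2(FPKM + pseudocount) with a pseudocount of 1 or 0.1, thinned counts, no fold threshold and a fit that was not robust. Members and gene lists were chosen with earlier results of these data known. Any list member could be named. Outside the lists, the rule took in each direction the 10 called genes with the highest TPM and the 10 with the largest log2 fold change at a mean of at least 50 CPM, with groups that do not overlap, and the 5 genes most variable in WT PMN. A few list members are not reported here.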

Additional observations from a re-analysis of the deposited data

How the results depend on the processing

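Library totals gave 1903 genes higher and 12630 lower in WT PMN, against 4238 and 8229 under TMM, so that genes higher made up 13.1% of calls, against 34.0% under TMM, 37.6% under RLE and 32.3% under upper-quartile scaling. The median lung level of neutrophil identity genes as a percent of the PMN level was 0.200% under library totals and 0.0288% under TMM. Of 238 named genes tested, 15 that were called under at least 1 of these scalings changed direction under library totals, to log2 fold changes of −1.65 for Cd3e, −0.85 for Cd74, −0.31 for Cxcr4, −1.90 for Ext1, −2.55 for H2-Ab1, −0.82 for Hp, −0.12 for Id1, −2.26 for Jun, −1.38 for Ldha, −1.95 for Ncr1, −1.10 for Pf4, −1.48 for Sdc4, −1.89 for Ticam1, −2.21 for Ticam2 and −0.52 for Tnip2. Col1a1, at −1.02, and Ltf, at −0.67, also changed direction under library totals and were called under neither scaling. The count of genes lower was 4106 with limma on log2(FPKM + 1), 4909 on log2(FPKM + 0.1) and 4295 on log2(FPKM + 1) without a filter, with 12084, 12084 and 28634 genes tested. These differ from the other fits in test, scaling and filter at once, and the cause was not tested. Leaving out 1 library gave 4319 to 4369 genes higher and 8176 to 8482 lower. With 1 library left out, Col1a1 ranged from −1.05 without PMN replicate 2 to 2.17 without PMN replicate 3, and Gm23935 from −1.57 without lung replicate 3 to 1.41 without lung replicate 2.
Apart from Ltf, Chil3 and Bpifa1, RLE scaling ended the calls of Csf2 (−1.37) and Lta4h (−0.97) and made one of Cd3e (1.12). DESeq2 and the fit of all 20 libraries both ended the call of Csf2 (−1.48 and −1.67) and called Ulk1 higher (3.90 and 3.68), and the fit of all 20 libraries called Hbb-bs (−3.17) and Muc1 (−1.01) lower. Upper-quartile scaling called Hbb-bs (−3.24), Muc1 (−1.10) and Pycard (−1.03) lower and ended the call of Sdc4 (0.93). Without a filter, C1qa (−1.01), Cdk1 (−1.08), Pycard (−1.12) and Muc1 (−1.19) were called lower, and Sdc4 (0.85) and Ldha (0.96) were not called.
For PMN and lung libraries with the same replicate number, deviations from the group means correlated at 0.0310, −0.0029 and 0.0076 for numbers 1, 2 and 3. With 3 libraries a group and unlike tissues, these values cannot decide whether the same number marks the same mouse. With the replicate number as a block, 4193 genes were higher and 8150 lower, and among named genes only the calls of Bpifa1 and Sparc changed. DESeq2 gave 5815 higher and 7871 lower of 20697 genes with an adjusted p. Of the 238 named genes, 194 kept their call in each of the 20 alternatives run that tested them. A gene that a fit left out counted as unchanged there, and so did a change of sign between values that were not called. With 3 libraries a group, few counts limit most the genes at or near 0 in one tissue, which have a bound or a wide interval and no exact fold.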
